A study of Homo sapiens with 6 samples.

Results

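The 503 regions described here are stretches of chromatin longer than 400 bp that were listed as bound by the transcription factor ZIC2 in human embryonic stem cells lacking ZNF263 and that shared no base with any region listed for wild-type cells. They were chosen from the knockout (KO) list of 7231 regions and the wild-type (WT) list of 12966 regions, which together hold 16077 different regions, by 3 conditions: no overlap of 1 bp or more with the WT list, a place on chromosomes 1 to 22 or X, and a width above 400 bp. On these chromosomes the lists hold 16040 regions, of which 3103 were called in KO and not in WT (KO-only), 8832 in WT and not in KO (WT-only) and 4105 in both (shared). Being called in KO and not in WT is the rule itself, so the following shares are a description: KO-only calls made up 19.3% of regions of any width and 11.8% of the 4264 regions above 400 bp. The wide KO-only regions were compared below with the 1344 WT-only and the 2417 shared regions that are also wider than 400 bp.

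ZIC2 belongs to the ZIC family of zinc-finger proteins, which are made in pluripotent cells and in the early nervous system and bind promoters and distal enhancers. ZNF263 is a DNA-binding protein with an array of C2H2 zinc fingers. CUT&Tag maps a DNA-bound protein by tethering a transposase to it through antibodies, so that sequenced fragments pile up around the binding site. A peak caller commonly gives a wide region where it joins a long stretch of signal. Such signal can come from many fragments, from several close sites or from open chromatin beside a site. How the regions of these lists were formed was not given in the sources used here.

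All libraries came from H1 (also WA01), a long-established line of human embryonic stem cells. There were 2 anti-ZIC2 libraries of WT cells and 2 of cells in which ZNF263 was deleted with Cas9, a genotype the labels call a homogeneous KO, plus 1 control library per genotype made with normal rabbit IgG. It is not stated whether the KO cells are 1 clone, or whether the replicates came from separate cultures. For each genotype the authors deposited 1 list of positions (hg19), with neither peak heights nor read counts. Depth is therefore unknown, and no value below has a replicate error. Absence from the WT list means that no region was listed, not that signal was measured to be absent. The rule by which a region entered a list was not given in the sources used here, and called means listed throughout. Genes and promoters at these positions were not analysed here, because the gene table at hand is on GRCh38, another build. For the same reason no sequence is shown.

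The wide KO-only regions were mostly of moderate width. Their median was 546 bp, with quartiles of 461 and 678 bp and a maximum of 1474 bp. Of the 503, 196 were at most 500 bp wide, 114 lay above that and up to 600 bp, 135 above 600 and up to 800 bp, 35 above 800 and up to 1000 bp, and 23 were wider than 1000 bp. Wide WT-only regions had a median of 532 bp and wide shared regions one of 614 bp. Above 1000 bp lay 4.57% of the wide KO-only, 2.31% of the wide WT-only and 7.03% of the wide shared regions. These widths are given without a test, since width chose the regions. All 4105 shared regions had the same start and end in both lists, so a width describes a region of a common set and not the extent of binding in 1 genotype.

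**Figure D1:**
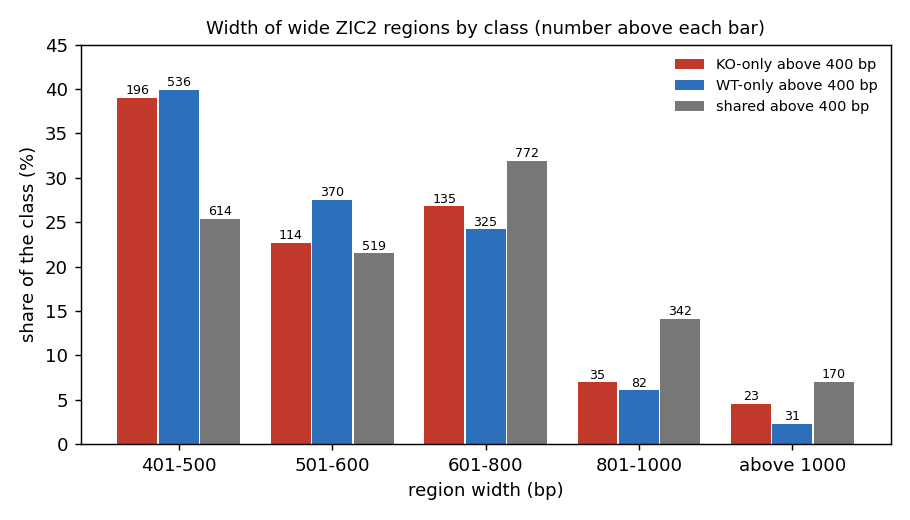
Share of each class of wide ZIC2 regions (y axis, percent) in 5 ranges of width (x axis, bp), with the number of regions above each bar. Of the wide KO-only regions, 196 of 503 lie in the narrowest range and 23 are wider than 1000 bp.

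Wide regions were 16.2% of the KO-only class (exact binomial 95% interval 14.9 to 17.6), 15.2% of the WT-only class (14.5 to 16.0) and 58.9% of the shared class (57.4 to 60.4). Such intervals reflect counting error alone and assume that regions are independent. The 503 regions covered 299 kb, which is 37.0% of the KO-only length and 10.4% of the length of the KO list on these chromosomes, against 6.98% of its regions by number. At the limit itself, 15 of the regions were 401 to 405 bp wide and 12 KO-only regions of 397 to 400 bp stayed outside. The nearest other region lay at a median of 48.2 kb from the former and 14.4 kb from the latter. Both medians rest on few regions and were not compared by a test. For all 196 wide KO-only regions of up to 500 bp the median was 20.9 kb.

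The widest of the regions differed in their surroundings. The 2 at the top were chr19:18808718-18810191 (1474 bp) and chr11:63685709-63687081 (1373 bp). The first had a further wide KO-only region, chr19:18811461-18812059 (599 bp), 1269 bp downstream, and the nearest region of the WT list was 60931 bp away. The second began at the base after the end of a shared region, chr11:63685189-63685708 (520 bp). Together they formed a stretch of 1893 bp, with the first part in both lists and the rest in the KO list alone. The third by width, chr19:35738741-35740023 (1283 bp), had a shared region 4543 bp away.

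Ranks 4 and 5 stood further apart from other regions. For chr2:48010124-48011366 (1243 bp) the nearest neighbour was a WT-only region of 276 bp at 26950 bp, and the nearest KO region was 379870 bp away. For chr1:147070629-147071842 (1214 bp) a shared region of 259 bp lay at 10999 bp. The same held for chr2:128144714-128145872 (1159 bp), with no other region within 50 kb and a WT-only region of 150 bp, the minimum width in the lists, at 67945 bp.

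The remaining regions of the 10 widest lay close to regions of the WT list. On chromosome 16, chr16:30075310-30076491 (1182 bp) was 222 bp from a WT-only region of 336 bp. On chromosome 1, chr1:204048904-204050063 (1160 bp) lay between a WT-only region of 260 bp at 1229 bp and a shared region of 457 bp at 3324 bp. On chromosome 19, chr19:13273757-13274912 (1156 bp) was 405 bp from a shared region of 503 bp. On chromosome 12, chr12:131249195-131250337 (1143 bp) touched a WT-only region of 824 bp. Of the 10 widest, 7 thus had another region within 5 kb, 6 had one of the WT list within 5 kb, and 3 were on chromosome 19.

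**Figure D2:**
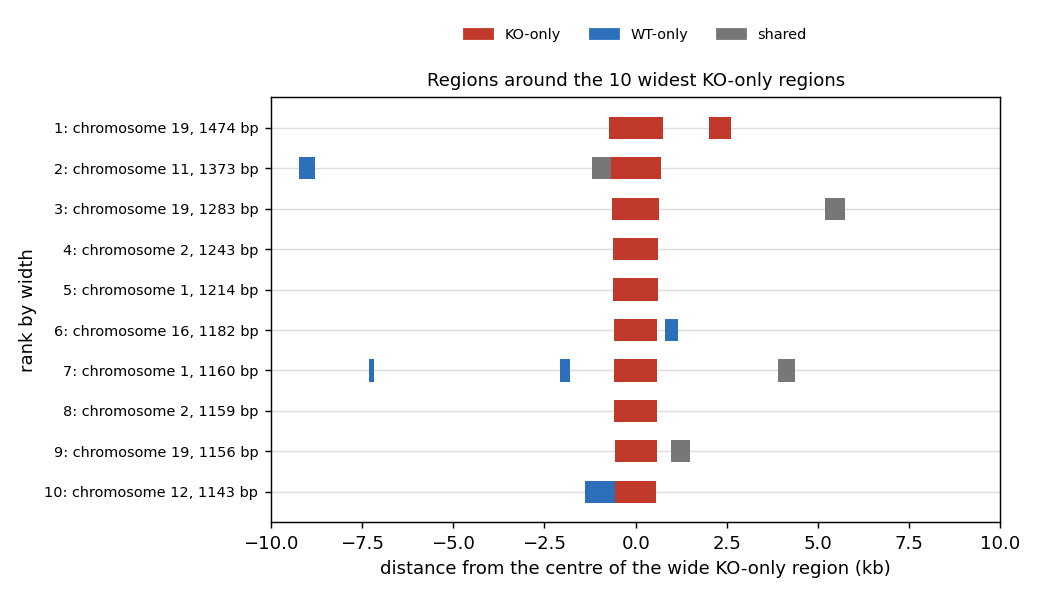
Regions of either list within 10 kb of the centre of each of the 10 widest KO-only regions (x axis, kb from that centre; y axis, rank by width). Red bars are KO-only, blue bars WT-only and grey bars shared regions; ranks 2 and 10 touch a region of the WT list, and ranks 4, 5 and 8 stand alone in this window.

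Contact with a region of the WT list, as at ranks 2 and 10, was rare. In all, 7 of the 503 regions (1.39%, exact binomial interval 0.561 to 2.85) began at the base after a WT-list region or ended at the base before one. In 4 cases the region touched was shared and in 3 it was WT-only. Besides those named, they were chr9:6007925-6008652, chr9:129439633-129440147 and chr12:56224065-56224716, each beside a shared region, and chr4:139579777-139580763 and chr14:24835894-24836647, each beside a WT-only region. The regions touched were 520 to 1040 bp wide, and the joined stretches measured 1302 to 1967 bp. Another region of the WT list was also touched by 13 of 1344 wide WT-only and 49 of 2417 wide shared regions. In the common set, 38 neighbouring pairs touched, 0 were separated by a gap shorter than the minimum width of 150 bp, and the narrowest region in a touching pair was 504 bp wide.

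In 3 of these stretches a wide WT-only and a wide KO-only region stood side by side. On chr4 the KO-only region of 987 bp was followed by a WT-only region of 534 bp, on chr14 one of 754 bp by one of 675 bp, and on chr12 a WT-only region of 824 bp preceded the KO-only region of 1143 bp. Not in contact but close were chr14:21538560-21539222 (663 bp), 174 bp from a WT-only region of 642 bp, and chr6:21665026-21665611 (586 bp), 270 bp from a WT-only region of 797 bp. Within 5 kb, 14 of the 503 regions had a wide WT-only region and 28 had a wide shared one. These classes hold 1344 and 2417 regions. Signal was not measured per library here, so a change of position and a change of call at each region cannot be told apart.

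Wide KO-only regions had a neighbour within 5 kb more often than wide WT-only regions did. Another region of either list lay within 5 kb, edge to edge, of 153 of the 503 wide KO-only regions (30.4%, 26.4 to 34.6) and of 307 of the 1344 wide WT-only regions (22.8%, 20.6 to 25.2). The background share was 25.2% for regions of any width and 26.1% for those above 400 bp. The difference was 7.58 percentage points, with an odds ratio of 1.48 (95% interval 1.17 to 1.87, two-sided Fisher's exact test, p = 0.00108, adjusted p = 0.00432 over 4 tests). Against wide shared regions, with 653 of 2417 (27.0%, 25.3 to 28.8), it came to 1.18 (0.950 to 1.46, Fisher's exact test, adjusted p = 0.167), an interval that includes 1. The tests treat regions as independent, which neighbours are not. With 1 list per genotype, their p-values do not measure variation between libraries or cultures. The comparisons were also chosen with earlier results of these data known.

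The difference from wide WT-only regions passed the threshold at 5 kb but not at 1 kb or 50 kb. The intervals at these distances overlap, and the distances were not compared by a test. Within 1 kb the shares were 16.7% for wide KO-only and 13.8% for wide WT-only regions (odds ratio 1.26, 0.936 to 1.68, Fisher's exact test, adjusted p = 0.239), and within 50 kb they were 69.4% and 65.3% (odds ratio 1.21, 0.963 to 1.52, adjusted p = 0.194). Leaving out regions within 1 kb of the other list gave 1.27 (0.950 to 1.68, Fisher's exact test, adjusted p = 0.126), but this removes only regions that have a neighbour, 64 wide KO-only and 99 wide WT-only ones, so the lower value follows in part from the setting itself. Local density moved with this result: the median number of other WT-list regions within 500 kb was 9 around wide KO-only, 7 around wide WT-only and 9 around wide shared regions. The part of density in the result was examined only by parting the regions by the number of other regions of either list within 500 kb. The division was at 11, the median around the wide KO-only regions. The counts include any neighbour within 5 kb, so this division cannot separate density from the result. The odds ratio was 1.42 (0.982 to 2.03) in sparse and 1.35 (0.968 to 1.87) in dense surroundings, and neither passed by Fisher's exact test (adjusted p = 0.102 and 0.139, with fewer regions in each).

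**Figure D3:**
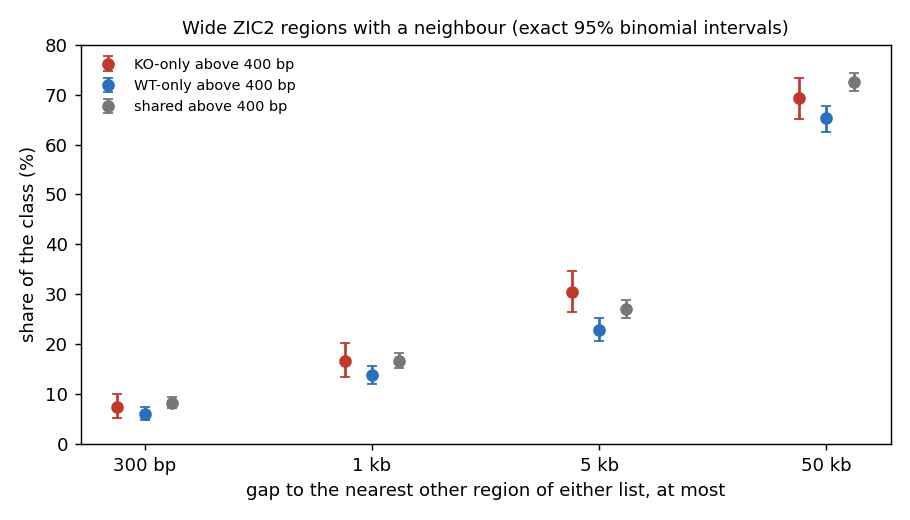
Share of wide KO-only (red), WT-only (blue) and shared (grey) regions with another region of either list within the gap on the x axis (y axis, percent; points with exact 95% binomial intervals). At 5 kb the shares are 30.4%, 22.8% and 27.0%, and at 50 kb they are 69.4%, 65.3% and 72.5%.

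Gaps ranged widely among the 503 regions. The nearest other region lay at a median of 21.6 kb, with quartiles of 2.89 and 62.1 kb, against a median of 28.7 kb for wide WT-only and 21.9 kb for wide shared regions. The nearest region of the WT list lay at a median of 27.3 kb and the nearest other region of the KO list at 52.1 kb. By width, a neighbour within 5 kb was present for 33.7% of wide KO-only, 24.8% of wide WT-only and 28.3% of wide shared regions of up to 500 bp. Above that and up to 600 bp the shares were 30.7%, 22.7% and 27.4%, and above 600 and up to 800 bp they were 25.9%, 21.2% and 26.7%. Above 800 and up to 1000 bp the wide KO-only regions had the lowest share, 7 of 35 (20.0%), against 18 of 82 wide WT-only and 87 of 342 wide shared regions (25.4%). Above 1000 bp it was present for 10 of 23 (43.5%, 23.2 to 65.5), against 3 of 31 wide WT-only regions (9.68%, 2.04 to 25.8) and 44 of 170 shared regions (25.9%, 19.5 to 33.1). The intervals of this widest range are broad, and the differences within ranges of width were not tested.

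The neighbours were of mixed class. The nearest region was WT-only for 261 of the 503 (51.9%), shared for 148 (29.4%) and KO-only for 94 (18.7%). The common set consists of 55.1% WT-only, 25.6% shared and 19.3% KO-only regions. In the same order, the nearest regions were 54.2%, 27.9% and 17.9% for wide WT-only regions, and 50.7%, 29.5% and 19.7% for wide shared regions. KO-only regions made up 28.7% of the 1-list regions (KO-only and WT-only) within 500 kb of the wide KO-only regions, summed over them. Around wide WT-only regions they made up 27.6%, and around wide shared regions 28.3%. Over the whole set the figure was 26.0%. These are descriptions, since neighbouring counts overlap.

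Neighbours were of all widths. For 133 of the 503 (26.4%) the nearest neighbour had the minimum width of 150 bp, and for 155 (30.8%) it was itself above 400 bp. These shares were 28.5% and 27.8% for wide WT-only regions, and 26.4% and 30.6% for wide shared regions.

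The closest neighbours of the WT list that did not touch lay within 200 bp. They were a WT-only region of 166 bp at 156 bp from chr16:686742-687173, one of 303 bp at 157 bp from chr11:65712978-65713395, and one of 150 bp at 173 bp from chr6:31795010-31795516. After the chr14 pair above came chr9:130829196-130829855 (660 bp), 179 bp from a shared region of 465 bp. In total 26 of the 503 (5.17%) had a WT-list region within 300 bp and 64 (12.7%) within 1 kb.

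Joining regions no more than 5 kb apart placed 153 of the 503 regions in 148 runs and left 350 alone. Of the runs, 117 held 2 regions, 21 held 3 and 10 held 4 or 5. In 73 runs the wide KO-only region was accompanied by WT-only but no shared regions, in 45 by shared but no WT-only regions, and in 11 by both. The other 19 runs held KO-only regions alone. Median widths were 518 bp in runs and 552 bp outside them. One run made of KO-only regions alone, chr12:6480266-6486055, held 4 regions over 5790 bp, 2 of them wide. The runs of 5, chr15:65099358-65103514, chr17:7338566-7348855 and chr19:36132484-36139270, each held 1 wide KO-only region with WT-only and shared ones.

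Spacing among the wide KO-only regions themselves is given without the same measure for the other classes. The median gap between wide KO-only regions that follow each other on a chromosome was 2.30 Mb (480 gaps). Another of the 503 lay within 100 kb of 57 of them and within 1 Mb of 268. In 5 cases the gap was within 5 kb, in 17 within 50 kb, and 14 pairs had no other region of either list between them. The closest pair was chr11:2713799-2714230 and chr11:2714408-2714979, 177 bp apart. Next came chr11:64948474-64948912 and chr11:64949397-64949976 at 484 bp, the widest region and its partner on chromosome 19 at 1269 bp, chr19:13227251-13227711 and chr19:13229658-13230187 at 1946 bp with 1 region between them, and chr12:6480266-6480672 and chr12:6485646-6486055 at 4973 bp with 2 between them. Of the 402 windows of 1 Mb that held any of the 503 regions, 325 held 1, 57 held 2, 17 held 3 and 3 held 4 or 5. The fullest, chr17:7000001-8000000, held 5, with 4 wide WT-only and 12 wide shared regions.

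At the other end were regions far from any other. The most isolated, chrX:43513746-43514252 (507 bp), was 1218 kb from the nearest region, a KO-only one. For chr21:20926286-20926920 (635 bp) the distance was 1063 kb and for chr2:140127087-140128090 (1004 bp) it was 589 kb, both to WT-only regions. A gap of 533 kb lay beside chr15:27757599-27758071 (473 bp) and one of 528 kb beside chr5:11386020-11386453 (434 bp). The chr2 region is wider than 1000 bp although both of its neighbours had the minimum width of 150 bp.

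Chromosome 19 held the most wide KO-only regions, 51 of 503 (10.1%, 7.64 to 13.1), ahead of chromosome 1 with 48 and chromosome 2 with 39. It held 92 of 1344 wide WT-only regions (6.85%, 5.55 to 8.33) and 278 of 2417 wide shared regions (11.5%, 10.3 to 12.8). The wide KO-only share lay between these, closer to that of the wide shared regions. Against wide WT-only regions it gave an odds ratio of 1.54 (1.05 to 2.22, two-sided Fisher's exact test, p = 0.0241, adjusted p = 0.0482), and against wide shared regions one of 0.868 (0.620 to 1.20, adjusted p = 0.438). An excess on this chromosome was already seen in these lists, so the first value is no independent evidence, and it lies close to the threshold: with a limit of 300 bp it came to 1.41 (Fisher's exact test, adjusted p = 0.0519).

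Per length, chromosome 19 had 8.63 wide KO-only regions per 10 Mb, counted up to the last region on the chromosome, followed by chromosome 17 with 3.58, chromosomes 20 and 22 with 2.54 each and chromosome 11 with 2.08. Chromosomes 18 and X had the fewest, with 3 and 5 regions, or 0.385 and 0.324 per 10 Mb. Neither density per length nor the sharing of windows is given for the other classes. Chromosomes 19 and 1 held 278 and 250 wide shared regions, and 92 and 142 wide WT-only ones. Over all chromosomes there were 37.4 wide KO-only regions per 100 wide WT-only regions. The ratio was 55.4 on chromosome 19, 56.5 on chromosome 13 (13 against 23 regions) and 75.0 on chromosome 21 (9 against 12), and it was 14.3 on chromosome 18 (3 against 21) and 20.0 on chromosome X (5 against 25). The differences between these chromosomes were not tested. On chromosome 19 they lay in 26 windows of 1 Mb, and 41 of the 51 shared a window with another. Of the 20 windows with 3 or more in all chromosomes, 8 were on this one. The fullest, chr19:46000001-47000000, held 4, beside 3 wide WT-only and 10 wide shared regions. Windows without a wide WT-only region included chr19:2000001-3000000, with 3 wide KO-only and 6 wide shared regions, and chr19:18000001-19000000, with 2 and 9, among them the widest of all.

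**Figure D4:**
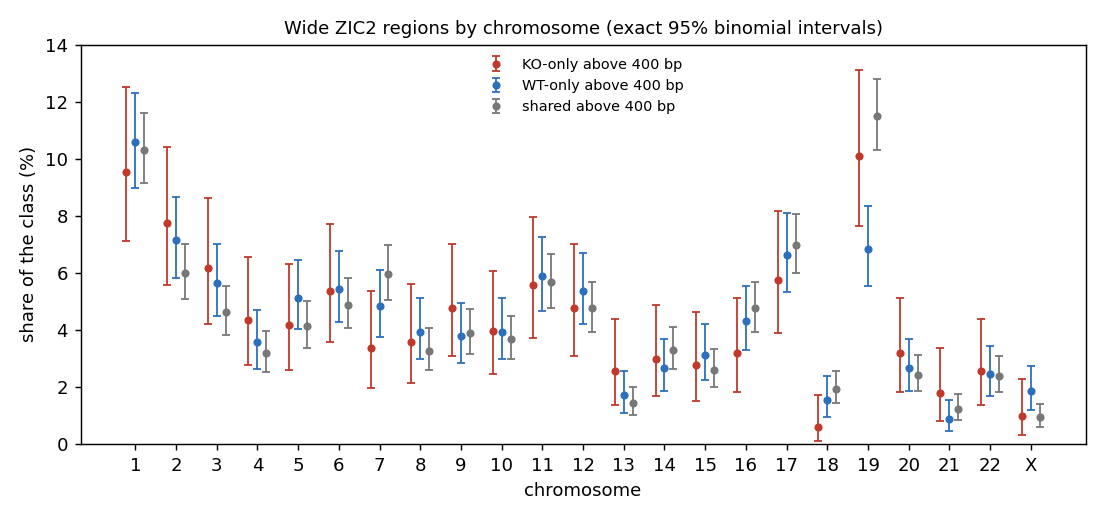
Share of wide KO-only (red), WT-only (blue) and shared (grey) regions on each chromosome (x axis; y axis in percent of the class, points with exact 95% binomial intervals). On chromosome 19 the shares are 10.1%, 6.85% and 11.5%.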

How the data were processed

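Per the labels, ZIC2 CUT&Tag was done on 2 WT and 2 ZNF263-KO libraries of H1 cells, with 1 IgG library of each genotype. The submitters' processing notes name Bowtie2, Picard and hg19. The way peaks were called, with replicates and IgG libraries, was not given in the sources used here. The authors deposited 2 lists of 3 columns without a header (chromosome, start, end in bp); depth is unknown and regions carry no values per library.

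Lists were read with Python 3.11.15, pandas 2.3.3 and numpy 2.4.6. Regions overlapping by 1 bp or more were called shared. Gaps are edge to edge, and coordinates count from 1. Numbers within 50 or 500 kb use midpoints. Shares have exact Clopper-Pearson 95% intervals. The planned shares (a neighbour within 5 kb, chromosome 19) were compared with wide WT-only and wide shared regions by Fisher's exact test (scipy 1.17.1, conditional odds ratios), adjusted by Benjamini-Hochberg over 4 tests with a threshold of 0.05. Routines were tested on simulated lists. Named regions are the 10 widest, the 5 closest pairs, the 5 closest to a WT region, the 5 farthest from any region and those at the width limit; other named regions were chosen after their values were seen. The regions, comparisons and alternatives were chosen with earlier results of these data known. With no hg19 genome or annotation at hand, the planned tests of promoters, motifs and gene lists were not made.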

Additional observations from a re-analysis of the deposited data

Results flagged for a closer look

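Outside chromosomes 1 to 22 and X, on contigs and chromosome Y, which the report does not use, lay 37 regions, of which 8 were KO-only, 14 WT-only and 15 shared. The KO-only share was 21.6% (exact binomial 95% interval 9.83 to 38.2), and this interval includes the 19.3% found on chromosomes 1 to 22 and X. No count from a control library stands beside them. Of the 8, 6 were on the unplaced contig Un_gl000220, and 4 of the 6 were wider than 400 bp. One of them, of 1031 bp, ran from 117418 to 118448. A region of 1000 bp from 134888 to 135887 touched another of 690 bp that ended at 136577, and the last, of 711 bp, began at 144747. This contig also held 7 shared and 3 WT-only regions, of which 5 and 1 were wider than 400 bp.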

How the results depend on the processing

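The number of regions was 822 with a limit of 300 bp and 307 with 500 bp, and stayed between 439 and 509 under the other planned settings. A neighbour within 5 kb, against wide WT-only regions, gave an odds ratio of 1.42 above 300 bp, 1.44 above 500 bp and 1.47 without chromosome 19, and each passed. It no longer passed with a distance of 1 kb (1.26) or 50 kb (1.21), with regions within 1 kb of the other list left out (1.27), a setting that removes only regions with a neighbour, or in sparse (1.42) and dense (1.35) surroundings, a division added after seeing the data that leaves fewer regions in each; the cause of the losses with distance was not tested. Among the settings given, it passed against wide shared regions only when the widest region of each class was kept per run. The odds ratio was then 1.30 (Fisher's exact test, adjusted p = 0.0348), in a setting added after seeing the data. A run with wide regions of several classes still counts on each side. This setting also drops only regions with a neighbour. The share fell from 30.4% to 29.7% for wide KO-only and from 27.0% to 24.6% for wide shared regions. The higher odds ratio thus follows at least in part from the setting itself. Chromosome 19, against wide WT-only regions, ranged from 1.41, which missed the threshold at a limit of 300 bp, to 1.74 at 500 bp. No paired analysis was possible because 1 list stands for the replicates of each genotype, and no replicate could be left out for the same reason. Alternatives for promoters and motifs were not run. Leaving out regions within 1 kb of the other list was not run for neighbours against shared regions, since it removes regions from 1 side only.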
